A study of Mus musculus with 28 samples.

Results

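Osteoblast-like cells were picked from the sorted skeletal cells of 16-week-old mice by their counts of 5 bone-forming genes. A cell with 200 or more detected genes was a member if Bglap, Bglap2, Ifitm5, Ibsp and Car3 together made up at least 0.5% of its unique molecular identifiers (UMIs, 1 per captured transcript), if 7 marrow stromal genes (Adipoq, Cxcl12, Lepr, Lpl, Hp, Kng1 and Esm1) stayed below 1%, and if 5 cartilage genes (Col2a1, Col9a1, Col9a2, Cnmd and Matn3) stayed below 1%. By this rule 268 of 4430 cells were osteoblast-like at 16 weeks, 138 of 2068 in the control library and 130 of 2362 in the knockout library. The 4 single-cell libraries of the series held 6205 cells with 200 or more genes.

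The labels give the control mice as PrxCre; Z24fl/+ and the conditional knockout mice (CKO) as PrxCre; Z24fl/fl, where PrxCre is the Prx1Cre line. Z24 is Zmpste24, the protease that trims prelamin A to mature lamin A. Prx1Cre acts in limb bud mesenchyme and its descendants. The controls carried the same Cre and 1 floxed allele. Both groups carried the Rosa26 Ai9 reporter, which stays on after recombination, and CD45- Ter119- CD31- Ai9+ cells were sorted from combined marrow and bone digests. The study names 3 pairs of mice as the source of these cells. The files do not tie cells to mice, so each genotype counts as 1 sample. No test between genotypes was possible, and every interval given here covers counting error only.

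Osteoblasts descend from mesenchymal progenitors under the transcription factors Runx2 and Sp7. They first secrete type I collagen and enzymes such as alkaline phosphatase (Alpl), and later proteins of mineralizing bone such as osteocalcin (Bglap) and bone sialoprotein (Ibsp). Cells that become buried in the matrix turn into osteocytes, which express Dmp1, Mepe, Phex and finally Sost.

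The 250 bases upstream of the start are shown for 5 genes whose levels describe the range found among the members. Bglap and Ifitm5, rule genes that helped to set this range, were highest in the cells richest in the rule genes. Spp1 and Mmp13, which the rule did not use, were lowest there, and the rule gene Ibsp was carried throughout. The sequences are RefSeq's on GRCm38.p6, each written 5′ to 3′ on the strand of its gene. They lie at chr3:88384467-88384716 (minus strand) for Bglap, chr7:140950244-140950493 (minus) for Ifitm5, chr5:104299037-104299286 (plus) for Ibsp, chr5:104434861-104435110 (plus) for Spp1, for which the more upstream of 2 listed starts was taken, and chr9:7272264-7272513 (plus) for Mmp13. Capitals mark the RUNX hexamer TGTGGT, read on both strands (ACCACA on the other), and the AP-1 heptamer TGANTCA. The RUNX hexamer was in 14.0% and the AP-1 heptamer in 6.75% of the 32851 listed windows of this length. Bglap2 and Car3 have no entry in the table.
Bglap: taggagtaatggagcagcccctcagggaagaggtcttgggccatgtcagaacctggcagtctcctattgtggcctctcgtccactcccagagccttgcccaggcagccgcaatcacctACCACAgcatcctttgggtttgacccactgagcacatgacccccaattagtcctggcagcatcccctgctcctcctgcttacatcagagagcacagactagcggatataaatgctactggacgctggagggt
Ifitm5: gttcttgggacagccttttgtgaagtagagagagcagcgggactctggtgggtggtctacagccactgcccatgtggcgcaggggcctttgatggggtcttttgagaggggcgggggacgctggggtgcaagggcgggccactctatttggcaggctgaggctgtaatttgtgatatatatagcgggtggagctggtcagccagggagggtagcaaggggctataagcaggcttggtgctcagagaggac
Ibsp: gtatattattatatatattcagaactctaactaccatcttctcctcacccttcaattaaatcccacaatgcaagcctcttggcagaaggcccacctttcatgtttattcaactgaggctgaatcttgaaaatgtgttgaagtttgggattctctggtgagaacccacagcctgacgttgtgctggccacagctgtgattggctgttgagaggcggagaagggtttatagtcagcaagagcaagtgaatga
Spp1: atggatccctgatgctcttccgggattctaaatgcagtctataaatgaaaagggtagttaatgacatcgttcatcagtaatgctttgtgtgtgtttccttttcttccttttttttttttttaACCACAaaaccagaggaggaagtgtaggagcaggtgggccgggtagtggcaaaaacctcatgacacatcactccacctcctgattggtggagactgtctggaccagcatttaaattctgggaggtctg
Mmp13: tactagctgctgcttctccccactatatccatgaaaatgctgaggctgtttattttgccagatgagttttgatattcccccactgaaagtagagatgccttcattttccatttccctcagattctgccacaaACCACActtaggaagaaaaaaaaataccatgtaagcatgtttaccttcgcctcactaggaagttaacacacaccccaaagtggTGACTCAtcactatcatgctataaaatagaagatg

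The hexamer began 132 bases before the start of Bglap, 128 bases before that of Spp1 and 118 bases before that of Mmp13, and the heptamer began 35 bases before that of Mmp13. The windows of Ifitm5 and Ibsp held neither. A match of letters does not show that a factor binds there.

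The rule genes themselves spanned a wide range of levels among the members. Levels are given in CPM, the UMIs of a gene in all cells of a group per 1000000 UMIs of those cells. Bglap (ENSMUSG00000074483), the gene of osteocalcin, stood at 39743 CPM in control and 25619.7 CPM in CKO members, from 13937 and 5195 UMIs. Its neighbour Bglap2 (ENSMUSG00000074486) stood at 19251 and 13310.4 CPM. The transcripts of this pair match at 434 of 440 aligned bases, and those of Bglap and Bglap3 at 423 of 440, so the split of reads among the copies is uncertain. Ibsp was at 13157 and 12122 CPM, Car3, a carbonic anhydrase, at 2153 and 1701 CPM, and Ifitm5, a membrane protein of mineralizing osteoblasts, at 1101 and 533 CPM. These values chose the cells and are a description only.

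Ibsp was the rule gene with the most UMIs in 80 of the 138 control members and in 91 of the 130 CKO members. No UMI of Bglap or Bglap2 was found in 12 control and 24 CKO members. Ibsp did not set the members apart from marrow stromal cells, here the 1753 control and 2120 CKO cells in which the 7 marrow genes reached 1%. It stood at 8268 and 7781 CPM there, with a UMI in 92.5% and 92.4% of the cells, compared with 96.4% and 93.1% of the members. Bglap in contrast was at 128 and 43.1 CPM in marrow stromal cells, and 7.3% and 5.24% of them had a UMI of it, compared with 83.3% and 70.0% of the members. Median depth was 1391 and 1268 UMIs per marrow stromal cell, and 1582 and 1120 UMIs per member. The median marrow stromal cell carried the rule genes at 0.709% and 0.68% of its UMIs, above the 0.5% limit, and 1092 control and 1324 CKO cells that passed this limit were left out because their marrow genes reached 1%. The members nearest to the limit were at 0.504% in control and 0.507% in CKO, and the closest cells below it were at 0.496% and 0.497%.

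The name osteoblast-like was checked on genes outside the rule. Col1a1, the main chain of type I collagen, was at 29369 CPM in control and 20866 CPM in CKO members, and at 197 and 108 CPM in marrow stromal cells. A minority of members carried most of it, since the median member had 0.299% of its UMIs from Col1a1 in control and 0.248% in CKO, and 43 control and 33 CKO members were above 1%. In 64 control and 81 CKO members Spp1 was at 1% or more and Bglap under 1%. Detection of Spp1 did not set the members apart, at 88.4% and 85.4% of them and 91.0% and 87.0% of marrow stromal cells. A UMI of Mmp13 was found in 53.6% and 63.1% of members and in 23.2% and 17.8% of marrow stromal cells. Alpl was at 513 and 542 CPM, against 44.3 and 62.0 CPM in marrow stromal cells. Sp7 stood at 160 and 197 CPM, against 35.6 and 29.2 CPM. Runx2 stood at 171 and 242 CPM, against 151 and 149.8 CPM in marrow stromal cells, a smaller gap than for Alpl or Sp7 in both libraries. The late osteocyte gene Sost had no UMI in either library, in which 3 counts would have been 8.55 and 14.8 CPM.

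Of the 2181 genes with 30 or more UMIs in the members of both libraries together, 153 (7.02%) were at least 2-fold above marrow stromal cells in both libraries, and 117 (5.36%) at least 2-fold below. The rule set the place of its own genes and of the marrow genes in these counts, which are a description only. The 15 furthest above held 4 rule genes (Bglap, Bglap2, Car3 and Ifitm5) and Col1a1. Outside the rule they also held Smpd3, a sphingomyelinase needed for bone mineralization, at 924 CPM in control and 676 CPM in CKO members against 11.5 and 5.19 CPM in marrow stromal cells. Col11a1 was at 855 and 572 CPM and Col11a2 at 585 and 533 CPM, both chains of a fibrillar collagen. Cpe, a carboxypeptidase, was at 969.6 and 804 CPM and had a UMI in 88 control and 60 CKO members. Postn, which encodes the matrix protein periostin, was at 559 and 572 CPM, Ptgis, prostacyclin synthase, at 505 and 454 CPM, and Tmem119, a membrane protein of osteoblasts, at 422 and 301 CPM. The remaining 3 were carried by few cells: Serpina1a had UMIs in 6 control members and 1 CKO member, Serpina1d in 5 and 3, and 3110079O15Rik in 6 and 3.

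The members differed widely in Bglap and Spp1. Divided by their share of rule genes, 23 control and 28 CKO cells lay between 0.5% and 1%, 33 and 41 between 1% and 2%, 48 and 34 between 2% and 5%, and 34 and 27 at 5% or more. The median member was at 2.46% in control and 1.85% in CKO, and the highest at 40.8% and 39.1%. A cell at 5% or more had a median of 2956 UMIs in control and 1359 in CKO, and a cell between 0.5% and 1% had 1066 and 1033.

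**Figure D1:**
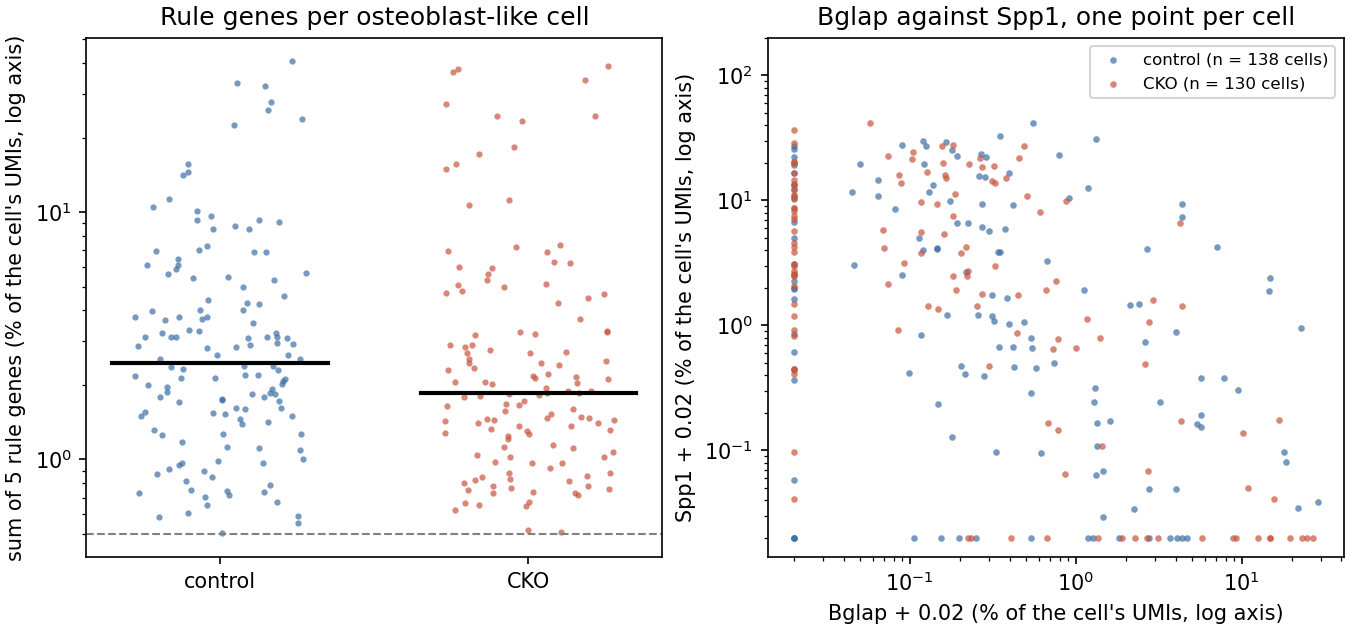
Left, the share of the 5 rule genes in each osteoblast-like cell (percent of the cell's UMIs, log axis) for control and CKO, with the median as a bar and the 0.5% limit dashed. Right, Bglap against Spp1 in the same cells (percent of the cell's UMIs with 0.02 added, log axes). The medians were 2.46% and 1.85%, and no cell reached 5% of both Bglap and Spp1.

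Across these ranges Bglap went from 1152 to 96978 CPM in control and from 924 to 92161 CPM in CKO, as the rule requires. Type I collagen, which the rule did not use, was also highest at 5% or more. Col1a1 was at 5602 CPM between 0.5% and 1%, 4094 CPM between 1% and 2% and 54816 CPM at 5% or more in control. In CKO it was at 2471, 7019.8 and 63378 CPM in these ranges. Smpd3 went from 62.2 to 1549.9 CPM in control and from 172 to 2102 CPM in CKO, and Col11a1 from 218 to 1542 CPM and from 107 to 1704 CPM. These genes were low below 2% and high at 5% or more in both libraries.

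Spp1, which encodes the matrix protein osteopontin, had its lowest level in the cells richest in rule genes. It was at 39899 CPM in control and 78892 CPM in CKO cells between 0.5% and 1%, at 105227 CPM in control and 104111 CPM in CKO cells between 1% and 2%, and at 18389 and 9828 CPM in cells at 5% or more. Single cells reached 41.3% of their UMIs for Spp1 in control and 41.5% in CKO. Of the control members 45 had Spp1 at 5% of their UMIs or more and 14 had Bglap at that level, compared with 51 and 14 of the CKO members. No cell of either library had both. Mmp13, a collagenase, was likewise lowest at 5% or more, with 9536 and 7372 CPM between 1% and 2% and 958 and 417 CPM at 5% or more. Postn had no steady course over the ranges. It was at 467 and 301 CPM (15 and 14 UMIs) between 0.5% and 1%, and at 1085 and 769 CPM between 1% and 2%. Between 2% and 5% it was at 507 and 974.7 CPM, and at 5% or more at 389 and 265 CPM. Runx2 was at 249 and 236 CPM between 0.5% and 1% and at 89.8 and 56.8 CPM (12 and 3 UMIs) at 5% or more. Ibsp was highest between 2% and 5%, at 18756 and 20810.5 CPM.

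**Figure D2:**
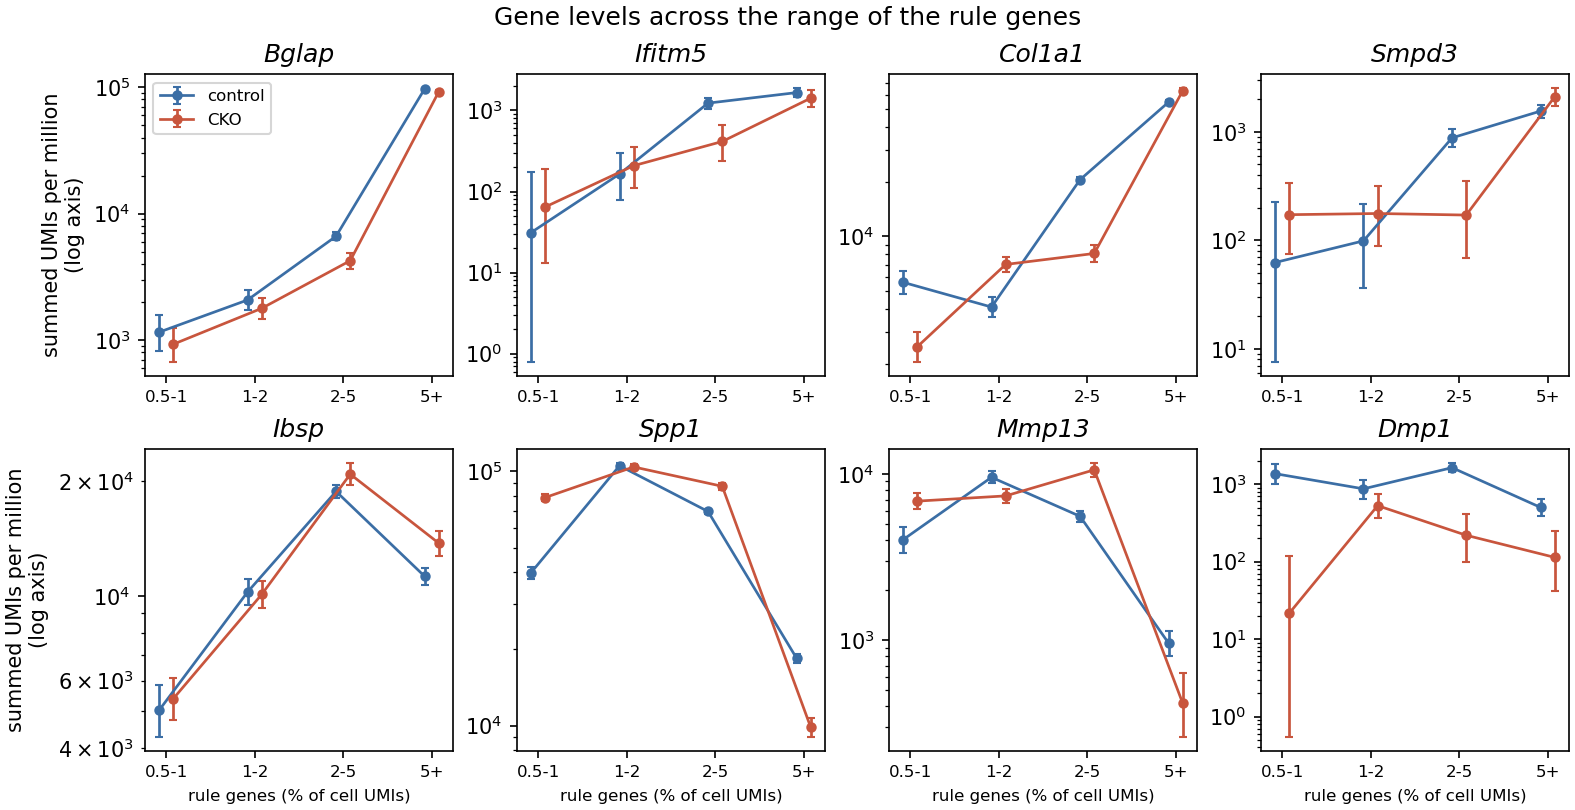
Summed levels (CPM, log axes) of 8 genes in 4 ranges of the rule genes, with 95% Poisson intervals of the counts, for control and CKO members. Bglap, Ifitm5, Col1a1 and Smpd3 were highest in cells with 5% or more of rule genes, Spp1 and Mmp13 were lowest there, and Dmp1 lay lower in CKO than in control in each range.

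Osteoblast-like cells made up 6.67% of the control cells (95% exact Clopper-Pearson interval 5.64% to 7.84%) and 5.50% of the CKO cells (4.62% to 6.50%). The intervals overlap, and the share was lower in CKO under each other limit tried on the rule genes, from 7.16% against 6.14% at a limit of 0.25% to 1.64% against 1.14% at 5%. Cells at 2% or more were 3.97% of control (3.17% to 4.90%) and 2.58% of CKO cells (1.98% to 3.31%), and those below 2% were 2.71% (2.05% to 3.50%) and 2.92% (2.28% to 3.68%). Control members held 350678 UMIs and CKO members 202774. Median depth was 1582 UMIs per control and 1120 UMIs per CKO member, and its part in these shares was not tested. Among the 5% deepest cells of each library were 29 control and 17 CKO members. The libraries shared 10 cell barcodes, of which 2 belonged to a member of 1 library and none to members of both.

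Zmpste24, the deleted gene, was too low to be compared among the members. It had 3 UMIs in control members (8.55 CPM) and 0 in CKO members. There 3 counts would have been 14.8 CPM, and the exact 95% upper limit of 0 counts was 18.2 CPM. Marrow stromal cells of the same libraries had 56 UMIs in control and 11 in CKO, that is 20.2 and 3.57 CPM, lower in the library labelled CKO. Reads of this kind come from the 3′ end of a transcript, outside the floxed exon, so they do not show the deletion itself.

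The genotypes were then compared gene by gene on the summed counts, as log2 of CKO over control with 10 CPM added to each. The median over the 2181 genes was 0.01. At least 2-fold higher in CKO, with a 95% exact conditional interval of the ratio that left out 1, were 37 genes (1.7%), and 43 (1.97%) were at least 2-fold lower, together 80 (3.67%). With TMM factors the median moved to -0.18 and the counts, by the fold alone, to 12 higher and 82 lower. In marrow stromal cells 20 of 9723 genes (0.206%) were at least 2-fold higher and 17 (0.175%) lower, also by the fold alone. These cells held 2778320 and 3083225 UMIs.

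**Figure D3:**
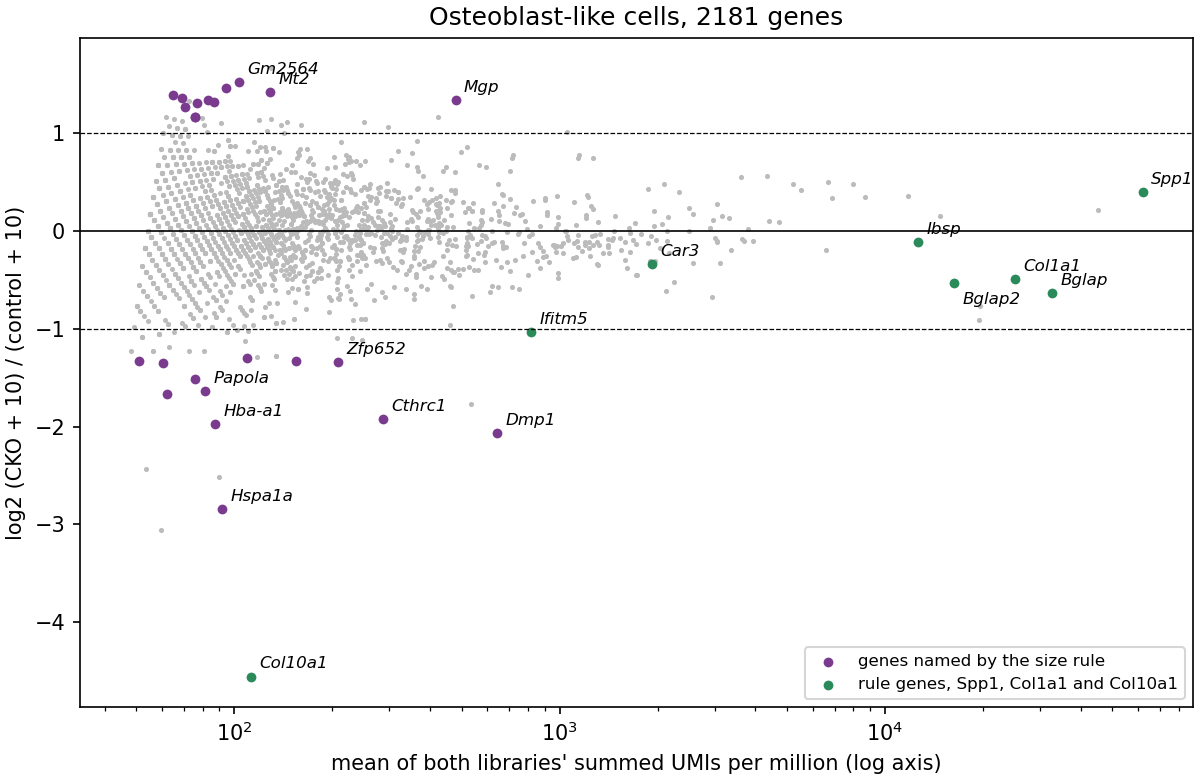
The log2 ratio of CKO over control in osteoblast-like cells (10 added to each level) against the mean level (CPM, log axis) for 2181 genes. Dashed lines mark 2-fold. Dmp1 (-2.07), Cthrc1 (-1.93) and Hspa1a (-2.85) lay below the lower line, and Mgp (1.33) above the upper one.

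Dmp1 (ENSMUSG00000029307), which encodes an acidic matrix protein of osteocytes and late osteoblasts, had the widest gap among the bone genes. It stood at 1047 CPM in control and 242 CPM in CKO members, 367 and 49 UMIs, a level 4.33-fold lower in CKO (95% counting interval 3.21 to 5.96). A Dmp1 UMI was found in 46 of 138 control members and 11 of 130 CKO members. With cells thinned to 500 UMIs each, and the 16 shallower CKO members left out, these shares were 21.0% (14.5% to 28.8%) and 6.14% (2.50% to 12.2%). In marrow stromal cells the unthinned share was 0.97% and 0.802%. Dmp1 was lower in CKO in each range of the rule genes. Between 0.5% and 1% it was at 1369 and 21.5 CPM (44 UMIs and 1). Between 1% and 2% it was at 871 and 529 CPM (53 and 33 UMIs), 1.65-fold lower (1.05 to 2.63). Between 2% and 5% it was at 1635 and 219 CPM (203 and 9 UMIs), 7.45-fold lower (3.85 to 16.5). At 5% or more it was at 502 and 114 CPM (67 and 6 UMIs), 4.42-fold lower (1.93 to 12.5). Few cells carried these counts, and in the lowest range 42 of the 44 control UMIs came from 2 cells. Cells with a Dmp1 UMI numbered 4 of 23 control and 1 of 28 CKO cells between 0.5% and 1%, 10 of 33 and 4 of 41 between 1% and 2%, 19 of 48 and 4 of 34 between 2% and 5%, and 13 of 34 and 2 of 27 at 5% or more. The log2 ratio lay between -2.64 and -1.69 over 18 alternatives, all past 2-fold, although some of these could not change the ratio of a single gene. The cell with the most Dmp1 held 24.8% of its control UMIs.

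Cthrc1, a secreted protein of collagen-rich matrix, was at 459 CPM in control and 113 CPM in CKO members, 4.05-fold lower in CKO (2.61 to 6.57). It had UMIs in 28 control and 9 CKO members. The gap was widest in cells between 2% and 5%, at 499 and 24.4 CPM (62 UMIs and 1). At 5% or more the levels were 726 and 379 CPM, a ratio of 0.521 (0.305 to 0.850). Ifitm5, whose values helped to choose the cells, was 2.07-fold lower (1.67 to 2.58), but under 2-fold in 7 of 18 alternatives (log2 ratio -1.65 to -0.23). It had 1232 against 414 CPM between 2% and 5% but 1662 against 1420.2 CPM at 5% or more. Hspa1a, a heat shock protein, was at 168 CPM in control and 14.8 CPM in CKO members, and 1 cell held 57.6% of its control UMIs. Hba-a1, a haemoglobin chain of red cells, was at 145 and 29.6 CPM, and in marrow stromal cells at 1002 and 234 CPM. The other genes of the 12 lowest were Adipor1, an adiponectin receptor, Papola, a poly(A) polymerase, Sh3gl1, Cacnb3, the zinc finger gene Zfp652, Mob4, Cdo1, a cysteine dioxygenase, and Hes1, a target of Notch signalling. Their levels ran from 77.0 to 302 CPM in control and from 24.7 to 113 CPM in CKO, and their log2 ratios from -1.66 to -1.29.

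Apart from Mgp, the 12 highest genes were low in level. Mgp, an inhibitor of mineralization, was at 268 CPM in control and 690.4 CPM in CKO members, a ratio of 2.58 (1.97 to 3.38), and 1 cell held 55.3% of its control and 1 cell 41.4% of its CKO UMIs. Its log2 ratio of 1.33 turned to -1.42 without the 5% deepest cells of each library. Mt2, a metallothionein, was at 65.6 and 192 CPM, with 46.2% of its CKO UMIs in 1 cell, and its log2 ratio of 1.42 turned to -0.065 without the deepest cells. Gm2564 was at 48.5 and 158 CPM and Cd59a, a complement regulator, at 45.6 and 143 CPM. Ltbp3, which binds latent TGF-beta, was at 34.2 and 104 CPM, with UMIs in 11 control and 18 CKO members. The other 7 were Marf1, Map1b, Ilf2, Ap2b1, Tmem2, Qsox1 and Tnrc6c, each with 20 to 26 UMIs in CKO and 11 to 16 in control. Of the 24 genes named by size, Dmp1, Hspa1a, Hba-a1 and Papola kept at least 2-fold under all 18 alternatives. Of these alternatives 1 removed no member. The limits of 100 or more and of 1 or more UMIs could not change the ratio of a single gene. The 24 were chosen for the size of their ratio and had to be detected only in the library where they are higher, so this is a description.

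**Figure D4:**
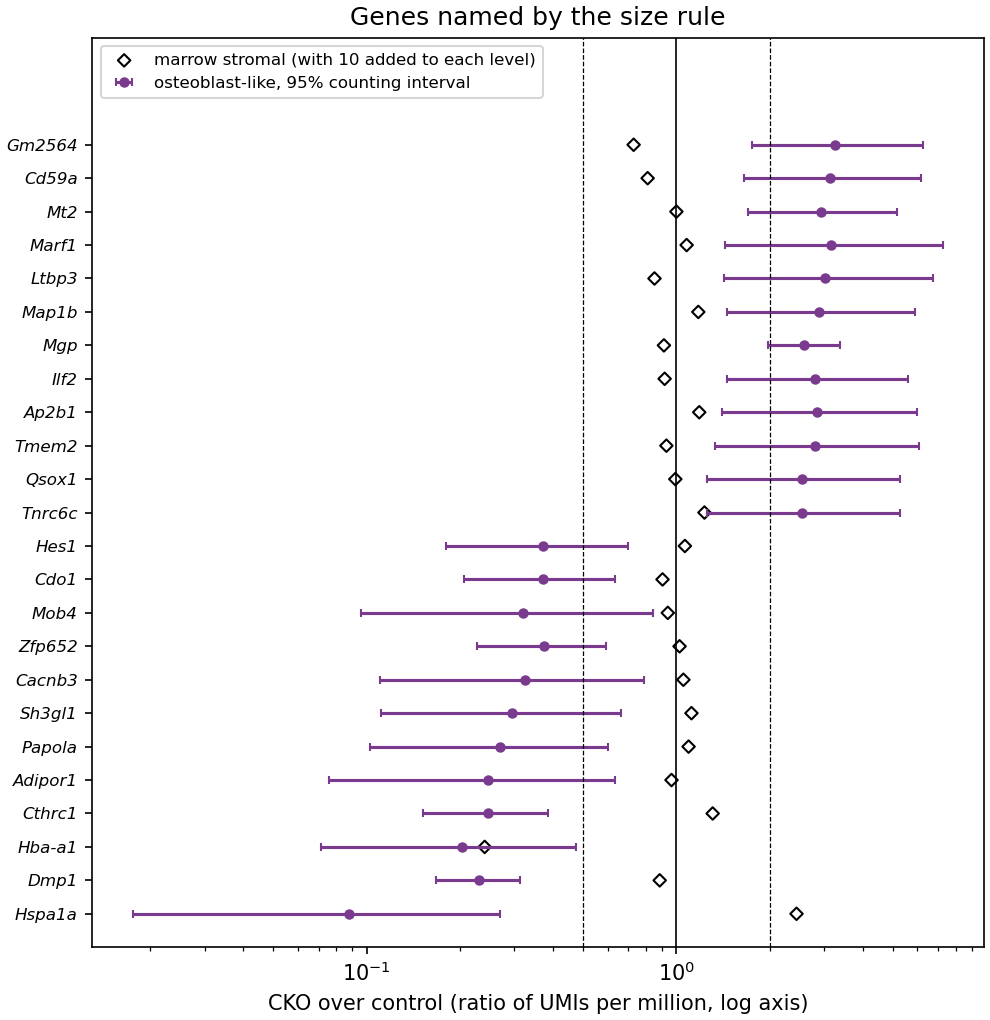
The ratio of CKO over control (log axis) of the 12 highest and 12 lowest genes in osteoblast-like cells, with 95% counting intervals. Open diamonds are marrow stromal cells, with 10 CPM added to each level, which draws genes low in these cells towards 1. Hba-a1 was low in both cell groups, Dmp1 was at 4.33-fold lower in osteoblast-like cells, and Hspa1a lay on opposite sides of 1.

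Bglap, Col1a1 and Sparc were lower in CKO in the sum of all members, but by sizes that differed across the ranges of the rule genes. Bglap was lower in CKO in each range, with 1 inside the interval of the ratio in the ranges below 2%. The direction of Col1a1 turned between ranges. Bglap had a ratio of CKO over control of 0.645 (0.624 to 0.666), and its log2 ratio of -0.63 was 0.05 as a mean over cells, 0.01 at a limit of 2% and 0.52 without the 5% deepest cells. Col1a1 had a ratio of 0.71 (0.685 to 0.736), and its log2 ratio of -0.49 was 0.04 with cells thinned to 1000 UMIs, 0.03 at a limit of 2% and 0.31 without the deepest cells. Sparc, a collagen-binding protein, was at 25434 and 13537 CPM, a ratio of 0.532 (0.51 to 0.556). At 5% or more of rule genes the ratio was 0.95 (0.919 to 0.982) for Bglap, 1.16 (1.11 to 1.20) for Col1a1 and 0.85 (0.805 to 0.897) for Sparc. Between 2% and 5% the gap was wide, with Col1a1 at 20528 and 8066 CPM and Sparc at 23742 and 6677 CPM. Between 1% and 2% Col1a1 was higher in CKO, 7019.8 against 4094 CPM, and Sparc had a ratio of 1.01 (0.867 to 1.18). CKO members also had fewer UMIs in the cells at 5% or more, 26.0% of all their UMIs against 38.1% in control. Spp1 was higher in the sum of CKO members, 70379 against 53525 CPM, a ratio of 1.31 (1.29 to 1.34), but its log2 ratio of 0.39 was -0.03 without the deepest cells and -0.90 among cells at 5% or more.

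In the list of bone matrix and mineralization genes 28 of 41 had enough UMIs, with a median log2 ratio of -0.12. Of these 2 were at least 2-fold higher (Mgp and Fn1, fibronectin) and 2 lower (Dmp1 and Cthrc1), against 1.7% and 1.97% of all genes. For Fn1, as for Mgp, 1 cell held 41.4% of the CKO UMIs. The median was above 0 at limits of 1%, 2% and 5% of rule genes. Of 35 genes for collagen processing and secretion 30 were compared, with a median of -0.34, 6 above 0 and none past 2-fold. Serpinh1, the collagen chaperone, was at 3616 and 2254 CPM, Pcolce, which helps cut the procollagen tail, at 935 and 1036 CPM, and Loxl1, a cross-linking enzyme, at 177 and 296 CPM. The median of this list was below 0 under all 18 alternatives, from -0.52 to -0.06.

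The transcription factors of the osteoblast lineage were mostly low in count. Of 30 factors 10 were compared, with a median of 0.22, 7 above 0 and none past 2-fold. Runx2 had a ratio of 1.41 (0.948 to 2.09) and Sp7 of 1.24 (0.802 to 1.89), both with 1 inside the interval. The log2 ratio of Runx2, 0.47, was -0.08 with cells thinned to 1000 UMIs and -0.58 at a limit of 5%, and that of Alpl, 0.08, was -0.12 with TMM factors and -0.51 with thinned cells. Mef2c was at 625 and 784 CPM and Dlx5 at 154 and 113 CPM. The median was -0.03 with the marrow and cartilage limits at 2%. Among osteocyte genes 8 of the 22 found in the files were compared, with a median of -0.25, and Dmp1 was the only one past 2-fold, 1 of 8 against 1.97% of all genes. Tnc, the matrix protein tenascin C, was at 1588 and 2140.3 CPM, Phex, a membrane peptidase of mineralization, at 59.9 and 49.3 CPM, and Kcnk2, a potassium channel, at 85.5 and 128 CPM. Mepe was at 48.5 and 19.7 CPM from 17 and 4 UMIs, a ratio of 0.407 (0.0996 to 1.25), and had UMIs in 4 members of each library.

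Of 71 genes of WNT, BMP and PTH signalling 13 were compared, with a median of 0.05 that was below 0 under 8 of 18 alternatives, TMM among them. Among ligands 4 of 20 were compared (median 0.06), among receptors 5 of 23 (0.17), among targets 2 of 12 (-0.19) and among inhibitors 2 of 16 (0.29), and none was past 2-fold. Bmp8a, a BMP ligand, was at 68.4 and 39.5 CPM. Pth1r, the receptor of parathyroid hormone, was at 1229 and 1021 CPM, and the FGF receptor Fgfr2 at 77.0 and 153 CPM. Id3, a target of BMP signals, was at 1474 and 1154 CPM, and Wif1, an inhibitor of WNT ligands, at 459 and 729.9 CPM. In the list of genes that couple osteoblasts to osteoclasts 11 of 25 were compared, 9 above 0, with a median of 0.17 that was -0.03 with TMM factors. It held Mmp13 at 4354 and 6091 CPM, Timp1, an inhibitor of metalloproteinases, at 719 and 809 CPM, Mmp16 at 71.3 and 54.2 CPM, and the chemokine Cxcl12 at 944 and 1583 CPM.

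The genes next to the deleted protease were sparse. Of 23 nuclear envelope and prelamin A genes 4 were compared, with a median of -0.25. Lmna, which encodes prelamin A, was at 179.7 and 128 CPM (63 and 26 UMIs), a ratio of 0.714 (0.434 to 1.14). Banf1, a chromatin-binding protein of the envelope, was at 117 and 98.6 CPM, and Fnta, a subunit of the farnesyl transferase, at 68.4 and 78.9 CPM. Of 36 p53 targets and cell cycle inhibitors 9 were compared, with a median of -0.12 that was above 0 under 4 of 18 alternatives. Gadd45b, a stress gene, was the only one past 2-fold, at 74.1 and 29.6 CPM (1 of 9 lower, against 1.97% of all genes). Cdkn1a, the cell cycle inhibitor p21, was at 613 CPM in control and 311 CPM in CKO members, 1.97-fold lower (1.48 to 2.66), and at 28.4 and 77.2 CPM in marrow stromal cells. It had UMIs in 52 control and 30 CKO members, and 1 cell held 27.9% of the control UMIs. Gadd45g at 291 and 369.9 CPM, Bax, which promotes apoptosis, at 157 and 143 CPM, and Ddit4, a brake on mTOR, at 88.4 and 163 CPM. Cdkn2a had 4 UMIs in the members of each library.

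**Figure D5:**
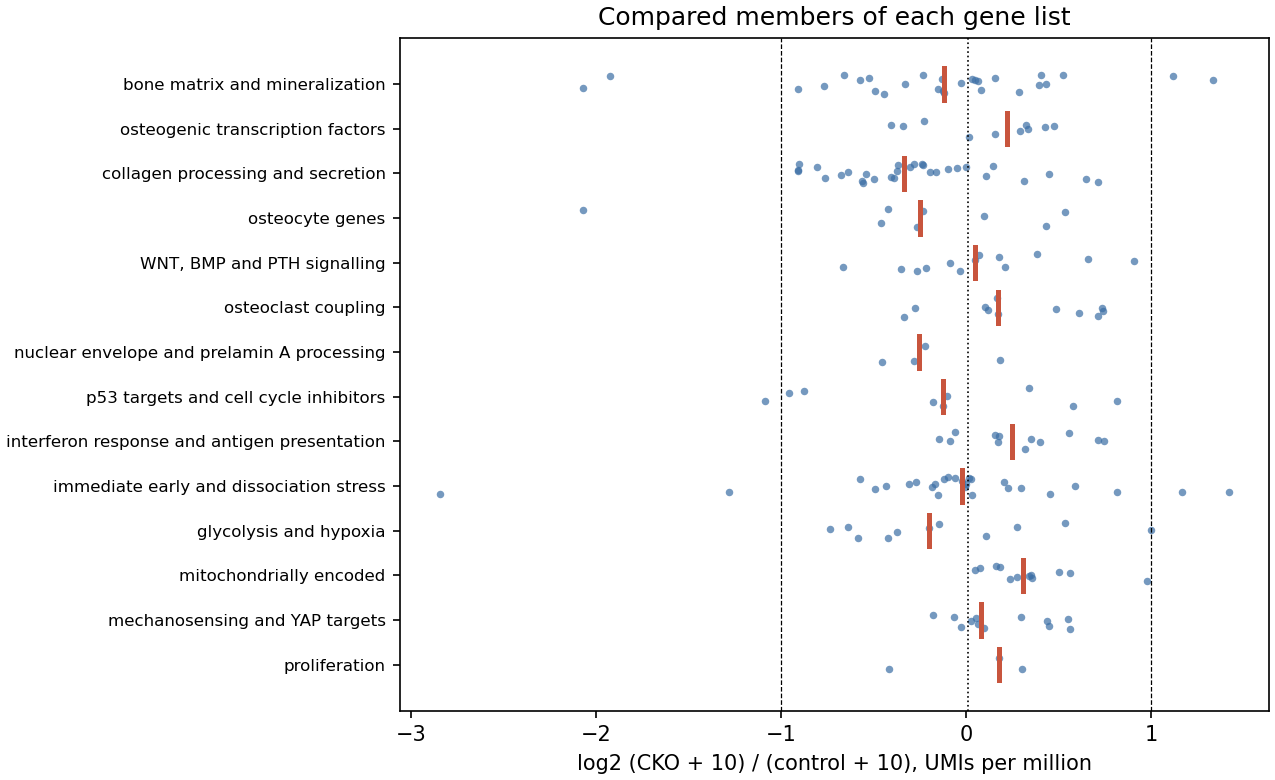
The log2 ratio of CKO over control (10 added to each level) of the compared genes of 14 lists in osteoblast-like cells, 1 point per gene, with the median of each list as a red bar and the median of all genes dotted. The medians lay between -0.34 for collagen processing and secretion and 0.31 for mitochondrially encoded genes. The sign of the WNT, BMP and PTH, mechanosensing and osteoclast coupling medians flipped with TMM factors, and that of proliferation with the mean of cell CPM.

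Mitochondrially encoded genes had ratios above 1 for 12 of 12 compared, with a median of 0.31 (0.10 with TMM factors, 0.06 to 0.46 over 18 alternatives) and none called past 2-fold. Their sum was 39290 CPM in control and 51032 CPM in CKO members. In marrow stromal cells it was 28239 and 29321 CPM. The most abundant, mt-Atp6, a subunit of the ATP synthase, was at 10354 and 13261 CPM in the members. Interferon response and antigen presentation genes (12 of 37 compared) had a median of 0.25 with 9 above 0 and none past 2-fold. B2m, the light chain of class I molecules, was at 2977 and 3319 CPM, and the heavy chain H2-D1 at 2424 and 2727 CPM. The interferon-induced membrane protein Ifitm3 was at 847 and 1425 CPM, Ifitm2 at 1072 and 1366 CPM and the immunoproteasome subunit Psmb8 at 94.1 and 83.8 CPM.

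Immediate early and stress genes (27 of 35 compared) went both ways in the members, with a median of -0.02, a range of -2.85 to 1.42, 11 above 0 and 2 past 2-fold each way (Mt1 and Mt2 higher, Hspa1a and Nfkbia lower), against 1.7% and 1.97% of all genes. For the same genes the median in marrow stromal cells was 0.65. Among the AP-1 subunits, Junb was at 727 and 646 CPM and Jund at 776 and 518 CPM in the members, and at 468 and 1154 CPM and 565 and 1244 CPM in marrow stromal cells. The chaperone Hspa8 was at 704 and 631 CPM in the members. The difference between the cell groups was not tested.

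Genes of glycolysis and hypoxia (11 of 29 compared) had a median of -0.20 and none past 2-fold. The enzymes Ldha, Pkm and Eno1 were at 354, 214 and 205 CPM in control and at 306, 192 and 128 CPM in CKO members. Hif1a, the hypoxia factor, was at 37.1 and 83.8 CPM from 13 and 17 UMIs, and Higd1a, one of its targets, at 171 and 98.6 CPM. Mechanosensing and YAP genes (12 of 33 compared) had a median of 0.08 that was -0.12 with TMM factors, again with none past 2-fold. The actins Actb and Actg1 were at 2931 and 750.0 CPM in control and at 4290.5 and 735 CPM in CKO members. Tpm1, a tropomyosin, was at 992 and 1218 CPM, the adhesion protein Tln1 at 97.0 and 148 CPM and the integrin Itgav at 62.7 and 54.2 CPM. Only 3 of 20 proliferation genes had enough UMIs (median 0.17, and -0.10 with the mean of cell CPM). They were Hmgb2 at 54.2 and 69.0 CPM, Pcna at 62.7 and 44.4 CPM and Stmn1 at 51.3 and 59.2 CPM.

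Markers of other cell types differed between the members of the libraries, and their part in the gene differences was not tested. The 10 marrow stromal markers, all present, summed to 1631 CPM in control and 2688 CPM in CKO members, led by Cxcl12, with Lpl at 45.6 and 113 CPM. The rule capped 7 marrow genes below 1% in each cell, Cxcl12, Hp and Lpl among them, and 5 cartilage genes likewise, so these levels are values it used. In marrow stromal cells their sum was 47863 and 46298 CPM. The 10 cartilage markers summed to 1198 and 641 CPM, led by Col2a1 at 556 and 369.9 CPM, with Col10a1 and Matn3 at 0 in CKO. Of 10 erythroid markers, led by Hbb-bs at 171 and 64.1 CPM, the sums were 462 and 143 CPM, with Alas2 and Slc4a1 at 0 in both. In marrow stromal cells the erythroid sums were 3185 and 638 CPM. The 9 periosteal markers summed to 1548 and 1687 CPM, led by Gsn, with Cilp, Clec3b and Pi16 at 0 in both. The 6 tendon markers (led by Comp) summed to 279 and 385 CPM with Mkx at 0, and the 8 osteoclast markers (led by Ctsk) to 242 and 217 CPM with Calcr, Ocstamp, Oscar and Dcstamp at 0. Of the 8 adipocyte markers, which summed to 2196 and 1809.9 CPM, nearly all came from Car3, with Cidec, Cfd, Retn and Plin4 at 0.

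Markers of white blood cells and endothelium were sparse in the members. The sums were 19.96 and 39.5 CPM for 10 neutrophil markers (led by S100a8, with Cxcr2, Lcn2, Elane, Ltf and Retnlg at 0), 5.7 and 4.93 CPM for 10 macrophage markers (led by Lyz2 with 1 UMI in CKO, with Adgre1, Csf1r and Cd68 at 0), and 28.5 and 39.5 CPM for 10 endothelial markers (led by Pecam1, with Cdh5, Kdr and Tek at 0). The 10 B cell, 10 T and NK cell and 6 megakaryocyte markers had 1 UMI each in control members and 0 in CKO, with Cd79b, Ccl5 and Pf4 the genes found. The 8 muscle markers (led by Myl1, with Ckm and Acta1 at 0) summed to 14.3 and 9.86 CPM. The 8 pericyte markers summed to 51.3 and 158 CPM, led by Rgs5, which had no UMI in control and 113 CPM in CKO, with Kcnj8, Mcam and Myh11 at 0 in both. The Y-linked Ddx3y was at 48.5 and 83.8 CPM and Xist at 0 in both libraries.

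The same rule found 107 of 993 cells in the 8-week Prx1Cre library and 114 of 782 in the 8-week OsxCre library (10.8% and 14.6%). Their labels name Z24fl/fl, an allele the study's text does not give these mice. Age, line and library cannot be told apart in these values, which are given side by side. Bglap was at 129255 and 103691 CPM at 8 weeks and Spp1 at 10773 and 34032 CPM. Of the 8-week members 64 and 53 lay at 5% of rule genes or more. In these cells Col1a1 was at 57357 and 59618.5 CPM, Mmp13 at 46.3 and 168 CPM, and Dmp1 at 385 and 907 CPM.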

How the data were processed

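Droplet scRNA-seq (10X Genomics 3′ v2 chemistry) of 2 libraries at 16 weeks was used, with the 2 libraries at 8 weeks for reference. The bulk RNA-seq and ATAC-seq libraries were not used here. The deposited values are raw UMI counts, made by the authors with Cell Ranger (3.1.0 per the file headers) on mm10. The study's text gives its cell numbers per genotype in the opposite order to the files, and the sample labels were followed. A Zmpste24 UMI was found in 54 of 1753 marrow stromal cells of the library labelled control and 10 of 2120 of that labelled CKO. Cells with 200 or more genes were kept (2068 of 2088 control and 2362 of 2373 CKO barcodes). Median depth was 1427.5 and 1274 UMIs per cell. No doublet caller was run, and an alternative left out the 5% deepest cells. In the files 71 rows with a repeated symbol were left out of the gene comparison.

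Counts were summed over members per library, divided by the summed total and given as CPM. Since there was 1 library per genotype, no test was made. Shares carry exact Clopper-Pearson intervals, levels exact Poisson and ratios exact conditional intervals, all at 95% and for counting error only. For a count of 0 the level that 3 counts would have is given. Genes with 30 or more UMIs were compared as log2 with 10 CPM added, and called at 2-fold where the interval left out 1. Counts of genes in marrow stromal cells and over the alternatives used the fold alone. The members, gene lists and rules were chosen with earlier results of these data known. Named were the rule genes, Zmpste24, a fixed set of bone and senescence genes, the 15 genes furthest above marrow stromal cells, the 12 furthest each way by genotype among called genes seen in 10% of cells of the higher library, and per list the 3 most abundant and the furthest each way. Upstream sequences came from RefSeq (GRCm38.p6) and transcript identity from GENCODE. Python 3.11.15, scipy 1.17.1, R 4.3.3 and edgeR 4.0.16 (TMM factors only) were used, and scripts were tested on simulated counts.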

Additional observations from a re-analysis of the deposited data

Results flagged for a closer look

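Of the 80 genes called at 2-fold in osteoblast-like cells, 9 had a genotype ratio of opposite sign in marrow stromal cells of the same libraries whose counting interval also left out 1. With 1 library per genotype the difference between the cell groups was not tested. Higher in CKO osteoblast-like cells were Gm2564 (log2 ratio 1.52, against -0.46 in marrow stromal cells), Mgp (1.33, against -0.13), Fn1 (1.12, against -0.42), Pdgfrb (1.08, against -0.20), Polr3gl (1.05, against -0.31) and Igfbp7 (1.01, against -0.09). Igfbp7, which binds insulin-like growth factors, was at 696 and 1410.4 CPM in control and CKO members and at 4703 and 4415 CPM in marrow stromal cells. Mgp, Gm2564 and Pdgfrb also stood higher in marrow stromal cells than in the members, at 2805, 540.3 and 558 CPM in the control library, whereas Fn1 stood at 154 and 345 CPM in members and at 13.3 and 7.46 CPM in marrow stromal cells, with 41.4% of its UMIs in CKO members from 1 cell.

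Lower in CKO osteoblast-like cells were Hspa1a (-2.85, against 1.29), Cthrc1 (-1.93, against 0.39) and Nfkbia, an inhibitor of NF-kappaB (-1.28, against 0.20). Cthrc1 rested on 1 UMI in control and 11 UMIs in CKO marrow stromal cells. Nfkbia had 68 UMIs in 46 control members and 15 UMIs in 10 CKO members.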

How the results depend on the processing

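No paired analysis was possible because each genotype had 1 scRNA-seq library, and for the same reason no replicate could be left out. Over 18 alternatives, 16 of them planned and 2 (a limit of 5%, and leaving out cells with UMIs of Col10a1, Ihh, Serpina1a, Serpina1d or Acan) chosen after seeing the data, the share of osteoblast-like cells was lower in CKO wherever it was recomputed. It was 5.56% in control and 4.32% in CKO at a limit of 1%, 3.97% and 2.58% at 2%, 1.64% and 1.14% at 5%, and 8.41% and 7.07% with marrow and cartilage sums under 2%. With these sums under 0.5% it was 4.32% in CKO, from 102 members against 118 in control. With 500 or more genes it was 4.42% in CKO, from 75 members against 98 in control. Without the 5% deepest cells it was 5.55% in control, from 109 members against 113 in CKO, which had more cells. Genes at least 2-fold higher and lower numbered 12 and 82 with TMM factors, 5 and 16 with cells thinned to 1000 UMIs, 6 and 13 with 50 CPM added, 5 and 8 with 100 or more UMIs, 539 and 464 with 1 or more UMI, and 12 and 26 at the 5% limit. They numbered 17 and 58 at the 1% limit, 26 and 60 at the 2% limit, 13 and 36 without the deepest cells and 48 and 73 with the mean of cell CPM. Zmpste24 was at 0 CPM in thinned control cells. The glycolysis and hypoxia median was -0.81 at the 2% limit and the transcription factor median 0.84 at the 5% limit. Of the 24 genes named by genotype ratio, those that turned in sign were Mgp (-0.70 with sums under 2%, -1.42 without the deepest cells), Mt2 (-0.065 without the deepest cells), Cdo1 (0.38 thinned), and at the 5% limit Gm2564 (-0.81), Ap2b1 (-0.47) and Tmem2 (-0.17). The cause was not tested. Bglap, Bglap2, Car3, Ibsp, Col1a1, Spp1, Runx2, Alpl, Phex and Sp7, not called at 2-fold, each crossed 0 under 1 to 4 alternatives. Leaving out cells with 1% or more globin removed no member. Among 432 results of these 24 genes, 359 kept direction and 2-fold, 66 kept direction only and 7 turned. The 359 include the results of the globin setting and of the limits of 100 or more and 1 or more UMIs. These settings could not change the ratio of a single gene. Depth limits genes under about 30 UMIs.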

Other observations

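Some members carried genes of growth plate cartilage at high level, although the rule kept 5 cartilage genes below 1%. These genes were chosen after their values were seen, apart from Col10a1. Col10a1, the collagen of hypertrophic chondrocytes, had 79 UMIs in 2 control members and 0 in CKO members, where 3 counts would have been 14.8 CPM, against 225 CPM in control. Ihh, the hedgehog ligand of prehypertrophic chondrocytes, had 34 UMIs in 4 control members and 2 in 1 CKO member. Cytl1 had 292 UMIs in 9 control and 48 in 3 CKO members, and 1 cell held 66.4% of the control UMIs. Mia had 260 UMIs in 9 control and 97 in 8 CKO members, and Chad, a cartilage matrix protein, 198 in 19 and 140 in 9. Acan, the main cartilage proteoglycan, was at 68.4 and 49.3 CPM, and Sox9, the transcription factor of chondrocytes, at 45.6 and 64.1 CPM. Chad was at 855 and 1330.2 CPM in cells with 1% to 2% of rule genes and at 37.4 and 133 CPM in those with 5% or more. Without the cells that held a UMI of Col10a1, Ihh, Serpina1a, Serpina1d or Acan, 129 control and 126 CKO members remained, and 33 genes were higher and 43 lower in CKO by 2-fold.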
